A study of Homo sapiens with 3 samples.

Results

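The 8 genes of the condensin complexes (SMC2, SMC4, NCAPD2, NCAPD3, NCAPG, NCAPG2, NCAPH and NCAPH2) and the chromosome scaffold genes TOP2A and MKI67 were followed across a pancreatic cancer cell line in which METTL3 was knocked down or PLK1 was inhibited. The genes were chosen by name, for the part their proteins play in building mitotic chromosomes, with earlier results of these data known. All 10 were found among the 14949 genes of the expression table. TOP2A differed most between the 3 libraries. Its normalized count was 43126 in the control library, 50297 after METTL3 knockdown and 29422 after PLK1 inhibition. The 3 condensin II subunits were all lower in the knockdown library than in the control library, by 0.11 to 0.36 on the log2 scale. NCAPH of condensin I (-0.23) and the core subunit SMC4 (-0.21) were lower there too. So were, beyond counting error, 35.4% of the genes whose normalized count averaged 500 or more. NCAPD2 of condensin I was the lowest condensin gene against control after PLK1 inhibition, at a log2 change of -0.30. In bulk RNA, a smaller share of cells in the phase that expresses a gene and less of its RNA per cell cannot be told apart, here and in all results that follow.

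All libraries came from MIAPaCa-2, an established human pancreatic carcinoma line grown in culture. The sh-CTL library is the line with a control short hairpin RNA and no treatment. The sh-METTL3 library is the line with a hairpin against METTL3, the catalytic subunit of the complex that writes N6-methyladenosine on mRNA, also without treatment. The sh-CTL + PLK1i library is the control-hairpin line given 80 nM of NMS-P937, an inhibitor of the mitotic kinase PLK1, for 24 h. Every library thus carries a hairpin, there is 1 sh-METTL3 line, and the labels name no vehicle for the untreated libraries. There was 1 library in each group, so no difference below has a replicate check. No test of a condition could be made, and each 95% interval (exact Clopper-Pearson, on the read ratio of 2 libraries) covers counting error only. Both comparisons with sh-CTL share that library, so an unusual value in it would enter both. The libraries are called control, knockdown and inhibitor below, and values in a row follow that order.

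Condensins are ring-shaped ATPases that extrude loops of DNA and compact chromosomes for mitosis. SMC2 and SMC4 form the core of both complexes. Condensin I adds NCAPD2, NCAPG and NCAPH and reaches the chromosomes after nuclear envelope breakdown, whereas condensin II adds NCAPD3, NCAPG2 and NCAPH2 and is nuclear throughout interphase. TOP2A encodes topoisomerase II alpha, which passes 1 DNA duplex through another and separates sister chromatids, and it is the target of etoposide and doxorubicin. MKI67 encodes Ki-67, a proliferation marker that coats mitotic chromosomes and keeps them apart. PLK1 and CDK1 phosphorylate condensin subunits at mitotic entry.

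The deposited values gave back whole reads. The libraries held 37449325 (sh-CTL), 46944898 (sh-METTL3) and 47727520 (sh-CTL + PLK1i) reads in listed genes, and the 10 genes took 0.451%, 0.450% and 0.387% of them. METTL3 had 3378, 1781 and 4223 reads, which put it at 41.9% of sh-CTL in the knockdown library (log2 change -1.25, 95% interval -1.34 to -1.17) and at -0.02 (-0.08 to 0.05) in the inhibitor library, so the hairpin label held. PLK1 mRNA had normalized counts of 8058, 5226 and 8515. The cell type label was met in part. KRT8, KRT18 and KRT19 were among the 5 of 9 epithelial markers listed, but EPCAM, CDH1, KRT7 and CLDN7 were not listed. The summed level of the listed epithelial markers was 3487, 4206 and 3245 CPM (reads scaled to an equal total per library) in the control, knockdown and inhibitor libraries. The keratins carried this sum. CLDN4 went in the other direction in both comparisons, at log2 changes of -0.35 and 0.46. ESRP1, at 26, 3 and 15 reads, did so after knockdown only and was lower with the sum after inhibition. Of 7 mesenchymal markers 5 were listed (FN1 and CDH2 were not), with sums of 6858, 5278 and 6639 CPM, most of it from VIM. Among them VIM stood at log2 changes of -0.40 and 0.01, and COL1A2 was lower in both comparisons, at -0.33 and -0.33. ZEB1 was higher in both, at 0.25 and 0.39. SNAI2 had 289, 20 and 493 reads, and COL1A1 had 34, 6 and 36. Of 7 blood and endothelial markers CD68 and LYZ alone were listed, at summed levels of 42.8, 78.0 and 62.7 CPM, and PTPRC, CD3E, MS4A1, PECAM1 and VWF were not. These marker sums differ between the libraries along with the results below, and their part in them was not tested.

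Cell cycle promoters are known for a pair of short elements, the CHR (cell cycle genes homology region, read by the DREAM and MuvB complexes) and the CCAAT box (read by NF-Y). RefSeq promoter windows, from 250 bases before to 50 bases after a transcript start, were listed for 9 of the 10 genes, and all 12 windows of these genes were placed on GRCh37 (the assembly also called hg19) by an exact match. The letters TTTGAA or TTCGAA (CHR), CCAAT, TTTGGCGC or TTTCGCGC (E2F) and GGGCGG (GC box) were searched on both strands. CHR letters were found for 8 of the 9 genes, against 19.5% of 27305 genes with a listed promoter. CCAAT was found for 5 of the 9 against 39.7% of all genes, the GC box for 7 against 48.3%, and the E2F letters for none against 1.40%. TOP2A, MKI67, NCAPD2 and NCAPD3 held CHR and CCAAT letters in 1 promoter window, as did 7.85% of all genes. A match is a description of letters and not a site shown to be bound.

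The stretches below are shown because they hold these letters upstream of the genes with the highest counts and of 2 condensin I genes. Capitals mark CHR letters (TTTGAA, or TTCAAA on the opposite strand) and CCAAT letters (CCAAT, or ATTGG on the opposite strand). In MKI67 the second CHR shares its last base with a CCAAT box, and a GC box overlaps that CCAAT box. None of the stretches lies in an annotated exon. They are, 5′ to 3′ in the direction of transcription, TOP2A at chr17:38574289-38574354 (minus strand), MKI67 at chr10:129924701-129924791 (minus strand), NCAPG at chr4:17812555-17812584 (plus strand) and NCAPH at chr2:97001380-97001408 (plus strand).
TOP2A: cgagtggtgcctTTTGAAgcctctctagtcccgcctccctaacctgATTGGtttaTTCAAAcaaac
MKI67: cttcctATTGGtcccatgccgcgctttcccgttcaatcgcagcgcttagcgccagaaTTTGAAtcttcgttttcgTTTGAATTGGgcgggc
NCAPG: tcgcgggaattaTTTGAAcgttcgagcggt
NCAPH: accccaagaagcCCAATcagacggggtcc

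The TOP2A stretch holds CHR letters at 194 and 151 bases before the RefSeq start with a CCAAT box between them, and 3 more CCAAT boxes lie in the same promoter window. The MKI67 CHR letters start 47 and 29 bases before the start. The NCAPG stretch has a CHR and no CCAAT letters, and the NCAPH stretch has a CCAAT and no CHR letters in the whole window.

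**Figure D1:**
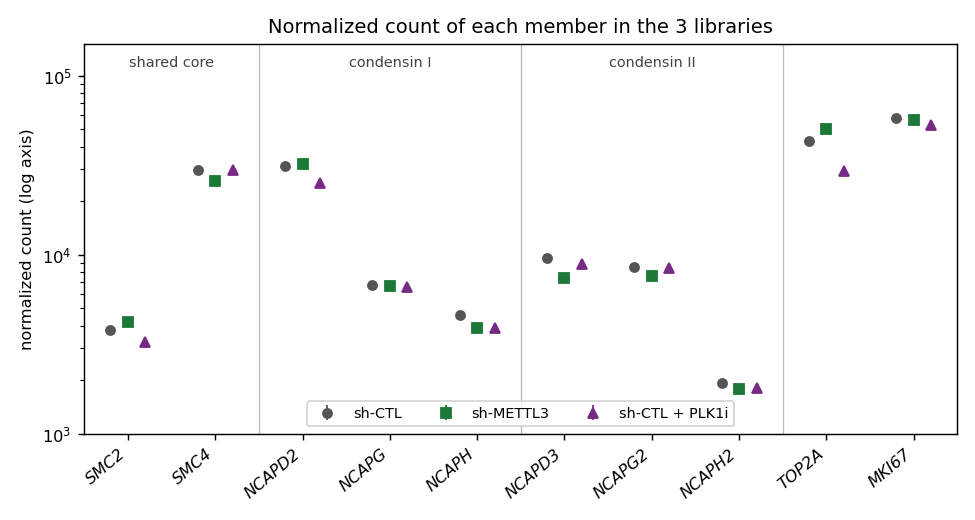
Normalized count (deposited values taken out of the log scale, log axis) of the 10 genes in the sh-CTL (circle), sh-METTL3 (square) and sh-CTL + PLK1i (triangle) library, with exact 95% Poisson intervals that are mostly smaller than the points. TOP2A runs from 29422 after inhibition to 50297 after knockdown, while NCAPG lies between 6548 and 6748.

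Levels were compared between genes per kilobase of the longest coding transcript. In the control, TOP2A was highest at 7573 normalized counts per kilobase, followed by NCAPD2 at 6450, SMC4 at 5526 and MKI67 at 4558. The other 6 genes lay between 573 (NCAPH2) and 1627 (NCAPG2). The partners of the condensin core were far apart in mRNA, with SMC4 at 8.76 times SMC2 per kilobase in the control. Transcript length bears on this order, because counts per kilobase of the union of all annotated exons put NCAPD3 at 510 in place of 1294 and MKI67 (4512) above SMC4 (3625). In the control TOP2A stayed first and NCAPD2 next on either length. In the inhibitor library SMC4 was first by the longest coding transcript, at 5574, above NCAPD2 (5225) and TOP2A (5166). By the union of exons TOP2A was first there, at 4616.

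After knockdown the core subunits SMC2 and SMC4 differed from the control in opposite directions. SMC2 (chr9:106856541-106903700, plus strand) had normalized counts of 3782 in the control, 4220 after knockdown and 3248 after inhibition. Its log2 change from the control was 0.16 (0.09 to 0.22) after knockdown and -0.22 (-0.29 to -0.15) after inhibition, so the knockdown library was highest and the inhibitor library lowest, with neighbours apart in both steps. SMC4 (chr3:160117062-160152742, plus strand) had normalized counts of 29598, 25652 and 29856. It was lower after knockdown by a log2 change of -0.21 (-0.23 to -0.18), whereas control and inhibitor libraries were not told apart by counting error (0.01, -0.01 to 0.04). The reads of SMC4 to those of SMC2, a ratio taken within a library and free of scaling, were accordingly 7.83 (7.55 to 8.12) in the control, 6.08 (5.89 to 6.27) after knockdown and 9.19 (8.88 to 9.52) after inhibition.

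Among the condensin I subunits, the largest difference was in NCAPD2, a HEAT-repeat subunit. NCAPD2 (chr12:6602522-6641121, plus strand) had normalized counts of 31124 in the control, 31976 after knockdown and 25211 after inhibition. The inhibitor library stood below both others, at -0.30 (-0.33 to -0.28) against the control, and 4.94% of the 9074 genes whose normalized count averaged 500 or more (called well-counted below) had a lower change. The knockdown library was 0.04 (0.02 to 0.06) above the control, a difference beyond counting error but smaller than the median size of change of these 9074 genes, 0.13.

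NCAPH, the kleisin that closes the condensin I ring (chr2:97001504-97042829, plus strand), had normalized counts of 4593, 3912 and 3872 in the control, knockdown and inhibitor libraries. It was lower than the control in the knockdown library (-0.23, -0.29 to -0.17) and in the inhibitor library (-0.25, -0.31 to -0.18), and those libraries were not told apart from each other. NCAPG, the other HEAT-repeat subunit of condensin I (chr4:17812602-17846488, plus strand), had 6748, 6705 and 6548. Its intervals spanned 0 in all 3 pairs of libraries and reached from -0.09 to 0.04 over both comparisons with the control.

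The condensin II subunits were all lower after knockdown. NCAPD3, the condensin II counterpart of NCAPD2 (chr11:134020008-134095398, minus strand), had normalized counts of 9536 in the control, 7446 after knockdown and 8881 after inhibition. The knockdown library was lowest and all 3 libraries were apart, with changes of -0.36 (-0.40 to -0.31) after knockdown and -0.10 (-0.15 to -0.06) for the inhibitor. Of the well-counted genes, 7.63% had a lower change than NCAPD3 after knockdown.

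NCAPG2 (chr7:158423861-158497495, minus strand), the counterpart of NCAPG, had normalized counts of 8549, 7558 and 8452. It was lower after knockdown (-0.18, -0.22 to -0.13), and its change with the inhibitor had an interval across 0 (-0.02, -0.06 to 0.03). NCAPH2, the condensin II kleisin (chr22:50946653-50963209, plus strand), was the least abundant of the 10 genes, with 1914, 1770 and 1803. Its change after knockdown was -0.11 (-0.21 to -0.02) and after inhibition -0.09 (-0.18 to 0.01), and no neighbours in the order of its levels were apart.

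The balance of condensin I to condensin II was then taken within each library. The reads of NCAPD2, NCAPG and NCAPH summed to 2.12 (2.09 to 2.16) times those of NCAPD3, NCAPG2 and NCAPH2 in the control. The ratio was higher after knockdown, at 2.54 (2.50 to 2.58), and lower after inhibition, at 1.86 (1.83 to 1.89), and the intervals did not overlap. The pair NCAPD2 and NCAPD3 followed the same order, with 3.26 (3.18 to 3.35), 4.29 (4.19 to 4.40) and 2.84 (2.77 to 2.91). The other pairs differed less between libraries. NCAPG to NCAPG2 was 0.789 in the control and 0.775 after inhibition, with overlapping intervals, and 0.887 (0.859 to 0.916) after knockdown. NCAPH to NCAPH2 was 2.40, 2.21 and 2.15, each overlapping the next. With the geometric mean of the subunits, in which NCAPD2 counts no more than the others, the ratios were 1.84, 2.03 and 1.68.

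**Figure D2:**
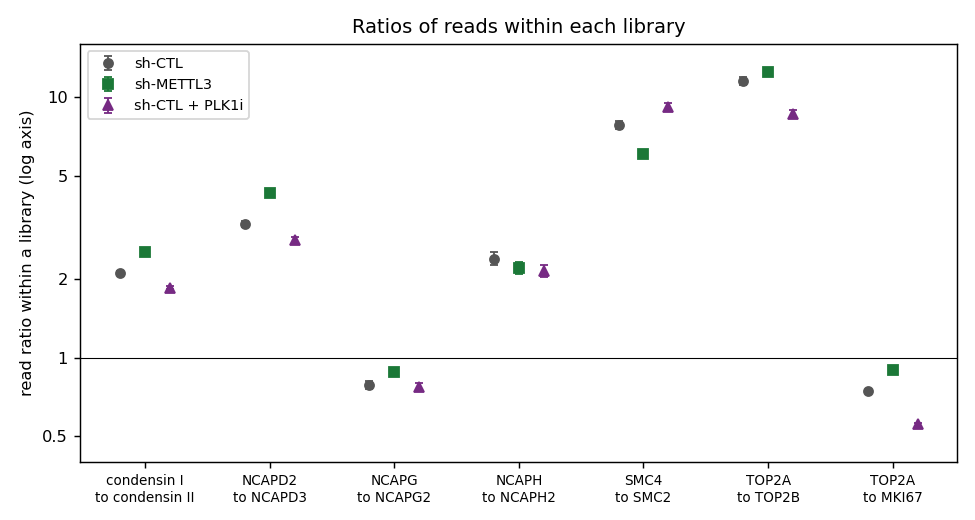
Ratio of reads within each library (log axis) for condensin I to condensin II, the 3 paralogue pairs, SMC4 to SMC2, and TOP2A to TOP2B and to MKI67, in sh-CTL (circle), sh-METTL3 (square) and sh-CTL + PLK1i (triangle), with exact 95% intervals for counting error. The condensin I to II ratio is 2.12, 2.54 and 1.86, and TOP2A to MKI67 runs from 0.558 after inhibition to 0.896 after knockdown.

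TOP2A (chr17:38544777-38574148, minus strand) had 36983 reads in the control, 54264 after knockdown and 31959 after inhibition, or normalized counts of 43126, 50297 and 29422. All 3 libraries were apart. The inhibitor library stood at 68.2% of the control, a log2 change of -0.55 (-0.57 to -0.53), and 0.551% of the well-counted genes had a lower change. After knockdown it was higher, by 0.22 (0.20 to 0.24), and 87.5% of the same genes had a lower change. The step from the inhibitor library to the knockdown library was 1.71-fold. TOP2B, the paralogue that non-dividing cells also use, had normalized counts of 3741, 4015 and 3420, and its inhibitor change of -0.13 (-0.20 to -0.06) was smaller in size. The reads of TOP2A to TOP2B were 11.5, 12.5 and 8.60, with intervals that did not overlap.

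MKI67 (chr10:129894923-129924687, minus strand) had the highest count of the 10 genes, with 49702, 60553 and 57315 reads and normalized counts of 57957, 56127 and 52765. The 3 libraries were apart by counting error, but the changes were small, at -0.05 (-0.06 to -0.03) after knockdown and -0.14 (-0.15 to -0.12) after inhibition. With a trend in GC content and transcript length taken out they were -0.020 and -0.086, outside these intervals. TOP2A to MKI67, a ratio of genes that are both used as proliferation markers, was 0.744, 0.896 and 0.558 in the 3 libraries, again with no overlap of the intervals.

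**Figure D3:**
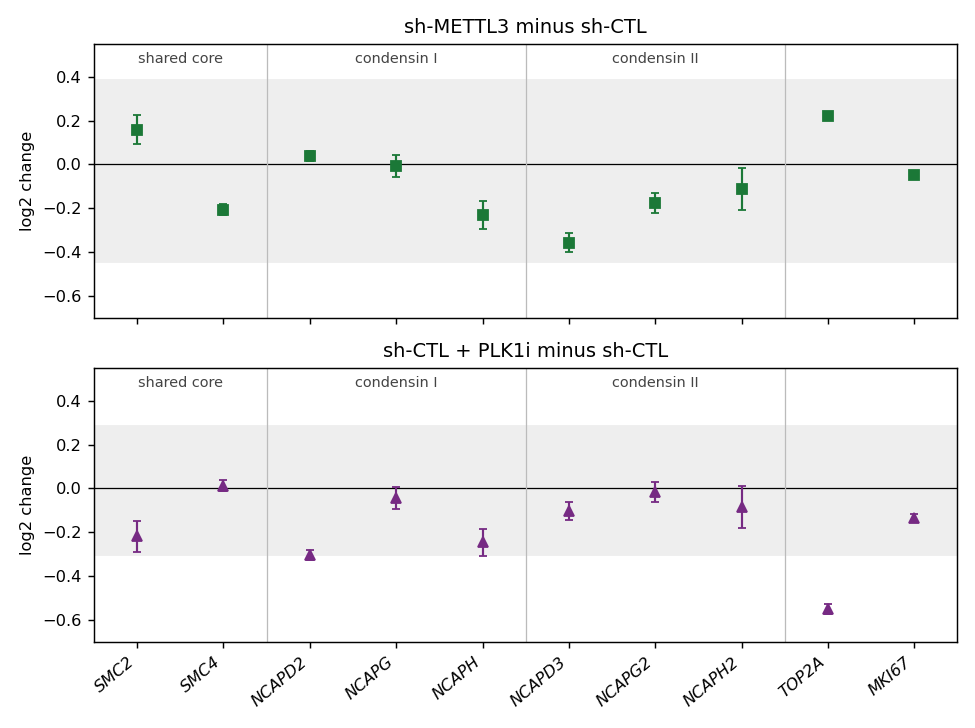
Log2 change of each gene after knockdown (upper) and after inhibition (lower) against the shared sh-CTL library, with 95% intervals for counting error. The grey band holds the central 90% of the changes of the 9074 well-counted genes. TOP2A at -0.55 lies outside it in the lower plot. NCAPD2, at -0.304, is at its lower edge of -0.302, closer than its counting error. No gene lies outside the band in the upper plot.

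The counts of genes past a fixed size were read beside those of all genes. After knockdown none of the 10 differed from the control by a log2 of 1 or more, against 2.94% of all 14949 genes lower and 3.42% higher. At a log2 of 0.25, NCAPD3 was lower, against 19.1% of all genes and 14.3% of the well-counted ones, and none was higher, against 19.9% and 10.4%. After inhibition none passed a log2 of 1 (1.13% of all genes lower and 1.39% higher). TOP2A and NCAPD2 were lower by 0.25 or more, against 15.4% of all genes and 7.52% of the well-counted ones, and none was higher, against 14.2% and 7.15%. NCAPH was just short of that size, at -0.246. All 10 genes were well counted, and a count of 1 or 2 among 10 is not far from these shares.

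Counting intervals off 0 are more frequent at high counts, so they were also read against the well-counted genes. Depth was still not matched. By mean normalized count MKI67, TOP2A, NCAPD2 and SMC4 rank in the top 1.15% of all genes. All but NCAPH2 rank in the top 18%. After knockdown, 6 of the 10 had an interval below 0 (28.2% of all genes, 35.4% of the well-counted ones) and SMC2, NCAPD2 and TOP2A had one above 0 (27.1% and 29.9%). After inhibition, SMC2, NCAPD2, NCAPD3, NCAPH, TOP2A and MKI67 had an interval below 0 (22.8% and 27.8%), and none had one above it (23.1% and 29.9%). The median change of the 10 genes was -0.08 after knockdown and -0.12 after inhibition, beside 0.00 over all genes in both. Over the well-counted genes the medians were -0.017 and 0.007.

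The knockdown and inhibitor libraries were also compared directly, without the control. No gene differed by a log2 of 1 (3.59% of all genes were lower and 3.87% higher after knockdown). TOP2A was higher after knockdown than after inhibition by 0.77 (0.75 to 0.79), SMC2 by 0.38 (0.31 to 0.44) and NCAPD2 by 0.34 (0.32 to 0.37), the 3 genes past 0.25 upward, against 24.3% of all genes. NCAPD3 alone passed 0.25 downward, at -0.25 (-0.30 to -0.21), against 23.3% of all genes, and with scaling by total reads or the upper quartile it was short of that size. SMC4 stood at -0.22 and NCAPG2 at -0.16, and MKI67 was higher by 0.09, all 3 with intervals off 0. Intervals were thus below 0 for 3 of the 10 genes (32.5% of all genes) and above 0 for 4 (32%). The intervals of NCAPG, NCAPH and NCAPH2 spanned 0.

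Changes after knockdown ran along stretches of some chromosomes, so each gene was set beside the 25 genes nearest to it that averaged 50 or more normalized counts. The 25 genes around SMC2 had a median change of 0.35 after knockdown, above the 0.16 of SMC2 itself, and 8 of the 25 were below it. The genes of chromosome 7 had a median of -0.25 over 631 genes, and the 25 around NCAPG2 one of -0.23, below the -0.18 of NCAPG2. The 25 around SMC4 had a median of -0.13 beside its -0.21, with 10 of the 25 below it. For SMC4 the 10 nearest genes had a median of -0.09, and all genes of chromosome 3 one of 0.00. The changes of SMC2, NCAPG2 and SMC4 after knockdown thus share the sign of the median around them. The part of the surrounding genes in the values was not tested. NCAPD3 and NCAPH did not share a direction with their neighbours. The 25 genes around NCAPD3 had a median of 0.02 and 1 of them was lower than NCAPD3, while those around NCAPH had a median of 0.08 and 1 was lower than NCAPH. Around TOP2A, which stood at 0.22 after knockdown, the median was -0.05 and 20 of the 25 were lower than TOP2A.

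With PLK1 inhibition, the 25 genes around TOP2A had a median of 0.01, and 1 of the 25 was lower than TOP2A. Around NCAPD2 the median was -0.05 with 6 of 25 lower, around NCAPH 0.02 with 2 of 25 lower, and around SMC2 0.12 with 1 of 25 lower. MKI67 lay within its neighbourhood, with 9 of 25 genes below it in either comparison.

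**Figure D4:**
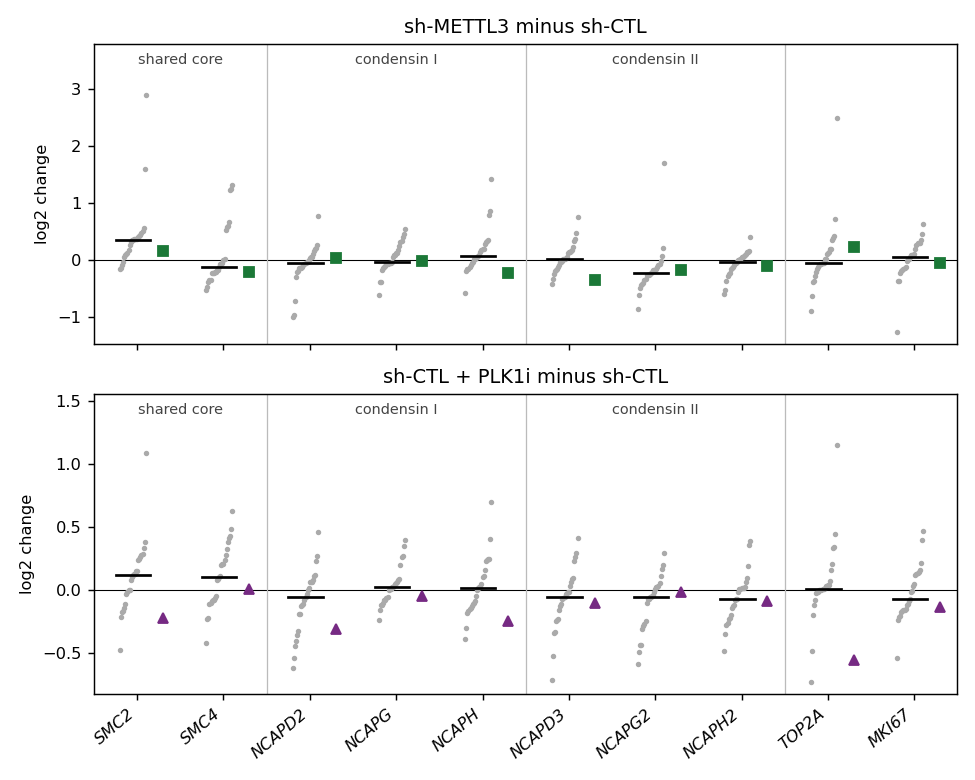
Log2 change against sh-CTL of the 25 nearest genes on the chromosome that averaged 50 or more normalized counts (grey, sorted, with their median as a bar) and of the gene itself (square for sh-METTL3, triangle for sh-CTL + PLK1i). The bars for SMC2 (0.35), NCAPG2 (-0.23) and SMC4 (-0.13) are away from 0 in the upper plot, and TOP2A in the lower plot is below all but 1 of its neighbours.

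Several of the 10 genes overlap a listed gene on the opposite strand: SMC4 with TRIM59 and IFT80, NCAPD2 with MRPL51, NCAPD3 with VPS26B and JAM3, NCAPG with LCORL, and NCAPH2 with SCO2. The library kit marks strand, but whether the counting used it is not given in the sources used here. The overlapping gene with the most reads beside its partner was SCO2, with 800, 1081 and 1083 reads against 1641, 1910 and 1958 for NCAPH2, and next came VPS26B, with 2598, 2929 and 2596 against 8178, 8033 and 9647 for NCAPD3. TOP2A, MKI67, SMC2, NCAPG2 and NCAPH overlap no listed gene.

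The rest of the pathway is described by lists of genes. Their counts by interval are to be read beside the well-counted genes, of which 35.4% were lower and 29.9% higher after knockdown, and 27.8% and 29.9% after inhibition. Regulators of condensation, the kinases, phosphatases and chromatin factors that act on condensin and TOP2A, comprised 17 genes with a median change of 0.01 after knockdown and 0.03 after inhibition. By counting intervals 8 were lower and 7 higher after knockdown, and 5 were lower and 7 higher after inhibition. PLK1 itself stood at -0.62 (-0.68 to -0.57) after knockdown and at 0.08 (0.03 to 0.12) in the inhibitor library. KMT5A, which writes histone H4 lysine 20 monomethylation, stood at -0.48 (-0.55 to -0.41) after knockdown. CDK1, the kinase of mitotic entry, had normalized counts of 6487, 7165 and 4781, and stood at 0.14 (0.09 to 0.19) and -0.44 (-0.50 to -0.39), and PPP1CB, a catalytic subunit of protein phosphatase 1, at 0.01 and -0.22.

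Partners of Ki-67 in the chromosome periphery, 8 nucleolar and perichromosomal genes, had medians of -0.03 and 0.12. After knockdown 3 were lower and 2 higher, and after inhibition 1 was lower and 5 were higher by counting interval. RRP1B stood at -0.29 (-0.33 to -0.25) after knockdown and 0.21 (0.17 to 0.25) after inhibition, and NIFK, which binds Ki-67 directly, at -0.17 and 0.19. MKI67 was lower in the inhibitor library, where the median of these partners was above 0.

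Topoisomerases other than TOP2A and the enzymes that repair their DNA adducts, 7 genes, had medians of 0.03 and -0.02. By counting interval 0 were lower and 2 higher after knockdown, and 2 lower and 1 higher after inhibition. TOP1, which relaxes DNA by single-strand breaks, was higher after inhibition, with normalized counts of 15242, 16031 and 17682 and changes of 0.07 and 0.21 (0.18 to 0.25). The intervals of TDP1 and TOP1MT spanned 0 in both comparisons.

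The relatives of condensin, 11 genes of cohesin (which holds sister chromatids) and the SMC5/6 complex (which acts in DNA repair), had medians of -0.03 and 0.01. By counting interval 2 were lower and 4 higher after knockdown, and 4 lower and 1 higher after inhibition. NSMCE1 and NSMCE4A, of SMC5/6, stood at 0.22 and 0.20 after knockdown. STAG2 and SMC1A, of cohesin, stood at -0.16 (-0.21 to -0.12) and -0.15 (-0.20 to -0.10) after inhibition.

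The 10 genes were last set beside markers of the cell cycle phases. The 31 G2 and M phase markers had a median of 0.08 in both comparisons, and by counting interval 8 (25.8%) were lower and 17 (54.8%) higher in each, beside 35.4% and 29.9% of the well-counted genes after knockdown and 27.8% and 29.9% after inhibition. KIF20A, a kinesin of cytokinesis, stood at 0.34 (0.31 to 0.39) after knockdown, and after inhibition CKS2, a CDK-binding subunit, stood at 0.40 and AURKA, a spindle pole kinase, at 0.36. The 26 S phase markers had medians of -0.06 and -0.17. After knockdown 12 (46.2%) were lower and 9 (34.6%) higher, and after inhibition 17 (65.4%) were lower and 4 (15.4%) higher, to be read beside the same shares. TYMS, which makes thymidylate, stood at 0.39 after knockdown and RFC2, of the clamp loader, at -0.34, and after inhibition E2F1 stood at -0.40 and the helicase subunit MCM3 at -0.37. RFC2 lies on chromosome 7.

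TOP2A mRNA is itself known to peak in G2 and M phase. In the inhibitor library its change of -0.55 was below that of all 31 of them, of which the lowest stood at -0.34, and of all 26 S phase markers, of which the lowest was E2F1. The 3 condensin I subunits had a median of -0.25 after inhibition and ranged from -0.30 to -0.04, and the 3 condensin II subunits had a median of -0.09 and ranged from -0.10 to -0.02. After knockdown the order of the medians was the other way, at -0.01 for condensin I and -0.18 for condensin II. The ranges overlapped there, from -0.23 to 0.04 for condensin I and from -0.36 to -0.11 for condensin II. NCAPH of condensin I was below NCAPG2 and NCAPH2 of condensin II. Of 16 genes of G1 and cell cycle exit, 14 were listed, with medians of 0.00 and 0.03. By counting interval 5 were lower and 3 higher after knockdown, and 6 lower and 7 higher after inhibition. CDKN1A, which encodes the CDK inhibitor p21, stood at -1.71 (-1.98 to -1.46) and 0.60 (0.43 to 0.77). CDKN2C, another CDK inhibitor gene, stood at -0.48 after knockdown and BTG1, an antiproliferative gene, at 0.55 after inhibition.

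**Figure D5:**
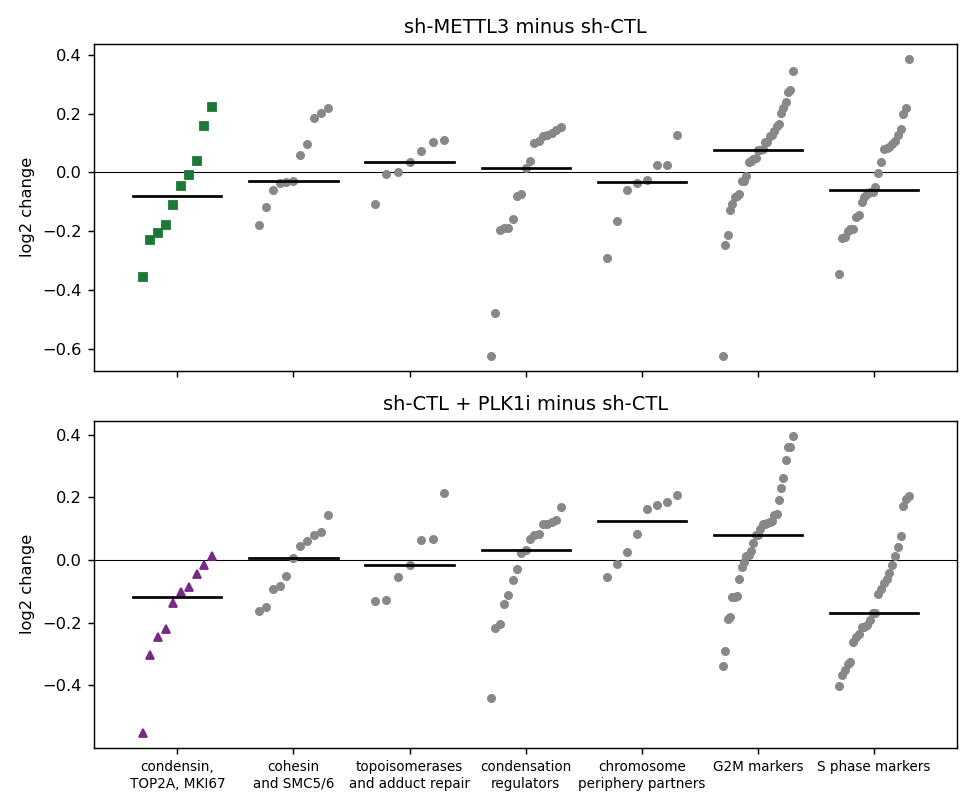
Log2 change against sh-CTL of the 10 genes (first column) and of related lists, sorted within each list, with the list median as a bar, after knockdown (upper) and after inhibition (lower). TOP2A, at -0.55 in the lower plot, is below every gene of the other 6 lists drawn. These leave out the G1 and cell cycle exit genes, of which the lowest stood at -1.03 after inhibition. The cell type markers are also left out, and among them ESRP1 stood at -1.08. The S phase markers have a median of -0.17 where the G2 and M markers have 0.08.

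Genes with the pattern most like that of TOP2A and MKI67 were sought by the Euclidean distance between their pairs of log2 changes, among well-counted genes and over the 3 libraries. The nearest to TOP2A were IER5L, at a distance of 0.0094, CTC-338M12.4 and ENSG00000287158, and 13 genes in all lay within 0.1. IER5L, an immediate early response family gene, stood at 0.21 after knockdown and -0.56 after inhibition. The nearest to MKI67 were SREK1, OGDH and TUBGCP6, and 843 genes lay within 0.1 of it, as its changes are close to 0.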

How the data were processed

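RNA-seq of 3 MIAPaCa-2 libraries was used, 1 in each group, made with the TruSeq stranded mRNA kit. The deposited table holds log2 values, which the authors made by a method not given in the sources used here. The submitters' processing notes name FastQC 0.11.9, STAR 2.7.10, RSEM 1.3.3 and hg19. From the values, each is log2(read count / size factor + 4), with the 4 added before the log was taken. Undoing these steps gave whole reads, within 0.1, for 100% of values under 2000 reads in each library. In the 3 libraries 1 read was worth 1.17, 0.927 and 0.921 normalized counts. Values are kept to 4 decimals, so the reads of the highest gene, MKI67, are known to about 2 reads. Columns were matched to samples by the names CTL, MET and PLKi.

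Changes are differences of log2(normalized count + 1), with 95% intervals by Clopper-Pearson on the 2 read counts (scipy 1.17.1). The reading of the values and the intervals were tested on data simulated with counting error as the only noise. Such data hold no spread between libraries of a group, so that test does not cover it. Gene positions and lengths are those of GENCODE release 44 on GRCh37, found for 14858 of 14949 genes. Promoters are RefSeq windows matched by symbol. Genes named outside the 10 are the 2 of each list with the largest change in either comparison, at a mean normalized count of 200 or more, the 3 genes nearest in pattern to TOP2A and to MKI67, the markers, and genes that overlap a member. The members and all lists were chosen with earlier results of these data known. Alternatives were other scalings, pseudocounts of 0.5 and 16, the deposited log2 values, a GC and length trend taken out, other filters and summaries.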

Additional observations from a re-analysis of the deposited data

How the results depend on the processing

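No paired analysis was possible because there is 1 library in each group, and for the same reason no library could be left out. Of 240 recomputed changes of the 10 genes, 231 moved by less than counting error. Across all settings TOP2A after PLK1 inhibition ranged from -0.57 to -0.54 and NCAPD3 after METTL3 knockdown from -0.36 to -0.34. MKI67 ranged from -0.048 to -0.020 after knockdown and from -0.15 to -0.086 after inhibition. The sign turned for NCAPG (knockdown), SMC4 (inhibitor) and NCAPH2 (knockdown against inhibitor), each with an interval across 0. Scaling by total reads or by the upper quartile left 0 genes lower by 0.25 in knockdown against inhibitor, as NCAPD3 is close to that size. Means in place of medians gave -0.067 for condensin I and -0.061 for the regulators after knockdown and -0.17 for the 10 genes after inhibition, where taking out a GC and length trend gave a median of -0.083. At a mean normalized count of 200 or more, the G1 and exit genes had a median of 0.094 after inhibition. The condensin I to II ratio was 2.48, 2.93 and 2.17 from reads per kilobase and 1.84, 2.03 and 1.68 from geometric means, in the same order of libraries each time. Of the neighbour medians, 7 of 40 changed sign: with the 10 nearest genes NCAPD2 (0.021 after knockdown, 0.040 after inhibition), NCAPG and NCAPH2 (0.13 and 0.064 after knockdown) and TOP2A (-0.00038 after inhibition), and with the 50 nearest TOP2A (0.024 after knockdown, -0.0043 after inhibition). Levels per kilobase moved with the choice of transcript length for all 10 genes. The cause of these shifts was not tested.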
